A study of Mus musculus with 10 samples.

Results

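A set of 9 protein-coding regulators of calcium signalling is described here in macrophages sorted from mouse mammary tumours. They are Camk2n1, Camk2d, Camk2g and Camk1 of the calmodulin kinase branch, Ppp3ca, Ppp3r1 and Rcan1 of the calcineurin branch, and the calcineurin B homologous proteins Chp1 and Chp2. They were taken by gene symbol as 9 of the 46957 loci listed, and the set was chosen because Camk2n1 and Chp2 were higher after treatment in these same libraries. The treatment contrast therefore chose the genes, and their differences between the groups are given as a description, with no p-value. Whether the fit across all loci called them is stated as a property of that fit and supports nothing. All 9 passed the filter on low counts that left 12501 loci for testing.

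The cells came from BALB/cJ mice carrying tumours of 4T1, a murine breast tumour line placed in the mammary fat pad. In the vehicle group (n = 5 libraries) the mice received PBS. In the JHU083 group (n = 5 libraries) they received JHU083, a pro-drug of the glutamine antagonist 6-diazo-5-oxo-L-norleucine, at 1 mg/kg from day 7 to day 13. In both groups the tumours were harvested on day 14, and live cells (7AAD-) positive for CD45, CD11b and F4/80 and negative for CD8, Ly6C and Ly6G were sorted into TRIZOL, so both groups share the tumour, the strain and the gate. The labels give no age or sex and do not say whether each library is a separate mouse, so p-values measure the spread between these libraries. RNA was measured in bulk, in which fewer cells of a type and less RNA per cell cannot be told apart.

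As background, a rise in cytosolic calcium loads calmodulin, which switches on the CaM kinases and the phosphatase calcineurin. CaMKII (catalytic subunits such as Camk2d and Camk2g) and CaM kinase I (Camk1) phosphorylate transcription factors and deacetylases, while calcineurin (catalytic subunit Ppp3ca, calcium-binding regulatory subunit Ppp3r1) dephosphorylates NFAT and lets it enter the nucleus. Camk2n1 is an endogenous protein inhibitor of CaMKII, Rcan1 is an inhibitor of calcineurin whose internal promoter is itself a known NFAT target, and Chp1 and Chp2 resemble the regulatory subunit of calcineurin and act as cofactors of plasma membrane sodium-proton exchangers. In macrophages this network is known for its part in osteoclast-like differentiation and in responses to phagocytosis and to microbial products.

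Promoter sequences are shown for Chp2, which had the largest fold difference of the 9 genes in the fit on all 10 libraries. They are also shown for both RefSeq starts of Rcan1, because its internal start is the known calcineurin-responsive one. RefSeq windows on GRCm38.p6 matched 6 of the 9 genes. Each run is the 250 bases before the start on the gene's own strand, 5′ to 3′, and capitals mark matches on either strand to any of 6 motifs: the NFAT core GGAAA, the cAMP response element core TGACG, the AP-1 site TGANTCA, the MEF2 core TATTTTTA, the TATA letters TATAAA and the GC box GGGCGG.
Chp2, chr7:122219246-122219495, plus strand: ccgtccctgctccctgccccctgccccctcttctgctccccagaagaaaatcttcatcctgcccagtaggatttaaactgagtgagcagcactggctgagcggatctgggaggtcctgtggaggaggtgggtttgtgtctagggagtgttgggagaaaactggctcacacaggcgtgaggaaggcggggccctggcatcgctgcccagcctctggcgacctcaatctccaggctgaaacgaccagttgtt
Rcan1 internal start, chr16:92400079-92400328, minus strand: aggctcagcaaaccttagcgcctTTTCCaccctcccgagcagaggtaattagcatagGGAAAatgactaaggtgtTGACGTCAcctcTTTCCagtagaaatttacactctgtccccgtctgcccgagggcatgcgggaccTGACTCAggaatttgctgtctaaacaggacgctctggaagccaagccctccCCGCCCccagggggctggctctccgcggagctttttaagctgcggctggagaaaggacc
Rcan1 distal start, chr16:92466170-92466419, minus strand: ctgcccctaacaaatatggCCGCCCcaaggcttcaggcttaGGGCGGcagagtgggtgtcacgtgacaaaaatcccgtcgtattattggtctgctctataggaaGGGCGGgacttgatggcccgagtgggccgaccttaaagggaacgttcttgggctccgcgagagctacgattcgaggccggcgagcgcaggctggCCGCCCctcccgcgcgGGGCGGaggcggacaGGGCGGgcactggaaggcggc

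The internal Rcan1 window held 3 matches to the NFAT core, beginning at -227, -193 and -163 counted from the start, where -1 is the base just before it. It also held the TGACG core on both strands at -175 and -172, which overlap each other, an AP-1 match at -110 and a GC box at -59. The distal Rcan1 window held 6 GC boxes and no match to the other motifs, and had 24 CpG dinucleotides against 11 in the internal window. The Chp2 window matched none of the 6 motifs in these letters, with 7 CpG dinucleotides and a GC content of 59.6%. Over all 32851 RefSeq windows of 300 bases (250 before the start and 50 after), the NFAT core was found in 61.3%, TGACG in 20.8%, the AP-1 site in 7.8%, the MEF2 core in 2.7%, the TATA letters in 13.6% and the GC box in 35.7%. A match is a description of letters, and which Rcan1 start was used in these cells was not analysed here.

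The libraries held 11147870 to 15740701 fragments, with 11147870 to 14575933 in the vehicle group and 13638381 to 15740701 in the JHU083 group (exact two-sided permutation test of the mean total, p = 0.0238, n = 5 and 5). A count of 3 fragments, the limit that a count of 0 allows, equals 0.191 to 0.269 CPM (counts scaled for library size and composition), and it covers counting error only. In 5 libraries (vehicle 2, 4 and 5, JHU083 1 and 3) the ribosomal repeat loci Rn18s-rs5 and Gm42418 were listed at 0, so those libraries and the other 5 form sets that stand apart, and differences are also given within each set. JHU083 library 3 had the lowest sample quality weight, at 0.292. Mitochondrial fragments made up 1.53% to 2.09% in vehicle and 2.14% to 2.44% in JHU083 libraries, with no overlap. Of 8 macrophage markers all were detected and 3 were called higher (Adgre1, Csf1r and Mertk), and their summed level was 12044 to 15933 CPM in vehicle and 14375 to 18725 CPM in JHU083 libraries. All 7 mammary tumour epithelium markers tested, of 8 listed, were called lower, and their sum was 279 to 605 CPM in vehicle against 100 to 213 CPM in JHU083 libraries. Summed endothelial markers (1 of 3 tested lower, Pecam1) were 122 to 210 CPM in vehicle and 34.4 to 82.6 CPM in JHU083 libraries. Pecam1 made up most of that sum, at 111 to 194 and 22.6 to 71.3 CPM, while Kdr and Cdh5 were not called. Summed dendritic cell markers (1 of 4 tested higher, Cd209a) were 5.32 to 6.26 CPM and 7.43 to 17.9 CPM. Cd209a itself was at 1.25 to 2.26 and 2.80 to 11.8 CPM, while Flt3, Zbtb46 and Clec9a were not called. Of 6 fibroblast markers 5 were called lower (sums of 103 to 224 and 25.7 to 113 CPM), and of 3 neutrophil markers tested, of 8 listed, S100a8 and S100a9 were (33.6 to 45.7 and 12.7 to 60.7 CPM). Summed skeletal muscle markers (1 of 2 tested lower) were 4.68 to 6.52 and 1.91 to 3.95 CPM, with Myh4 at 0 in every library. Single markers of eosinophils (Siglecf), mast cells (Cpa3) and B cells (Cd79b) were called higher and Mcpt4 of mast cells lower, while the sums of those lists overlapped between the groups. The part of these other cells, of depth and of mitochondrial share in the differences described here was not tested.

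Over all 12501 loci tested with the edgeR quasi-likelihood test, 36.7% were called at an adjusted p under 0.05, 18.4% as higher and 18.3% as lower in JHU083. In 11.2% every JHU083 library lay above every vehicle library, and in 11.1% every one lay below. Among the 9 genes, which this contrast chose, 6 were called, all as higher, and in 4 (Camk2n1, Chp2, Rcan1 and Ppp3r1) the JHU083 libraries all lay above the vehicle libraries. The median log2 fold change of the 9 genes was 0.27, beside 0.011 over all loci tested (quartiles -0.25 and 0.27). Scaling by library size only gave 1564 higher and 3141 lower calls over all loci (33.2% higher), against 2296 and 2293 here, and left 3 of the 9 genes called (Camk2n1, Chp2 and Rcan1).

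**Figure D1:**
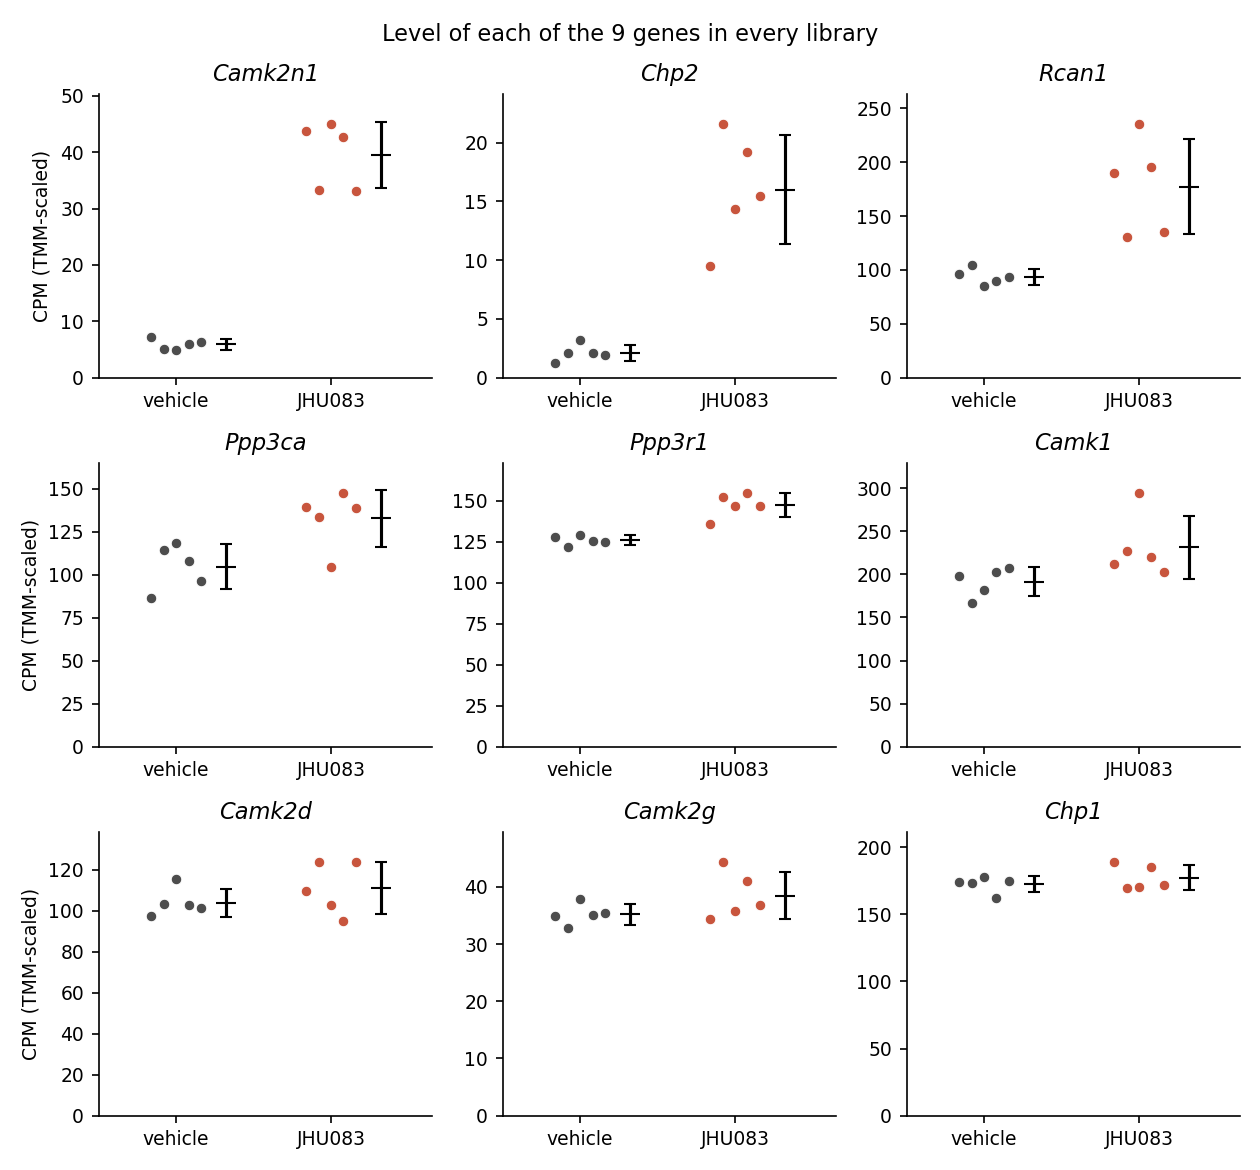
Level of each of the 9 genes in every library, as TMM-scaled CPM on linear axes from 0, with vehicle in grey and JHU083 in red; the bar beside each group is the mean with its SD (n = 5). Camk2n1 and Chp2 show groups far apart, Rcan1 shows groups that do not overlap, Ppp3r1 shows groups that are close but do not overlap, and the other 5 genes overlap.

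Camk2n1, the CaMKII inhibitor, had the difference that was largest beside its error. Its level was 7.27, 5.11, 4.98, 5.91 and 6.26 CPM in vehicle libraries 1 to 5 and 43.7, 33.4, 45.0, 42.7 and 33.1 CPM in JHU083 libraries 1 to 5. Every JHU083 library was far above every vehicle library, and within the JHU083 group libraries 2 and 5 lay lowest. The means were 5.90 ± 0.93 and 39.6 ± 5.85 CPM (SD, n = 5 each), and the fitted log2 fold change was 2.74 ± 0.14 (SE), a 6.68-fold difference. These levels rest on 66 to 107 fragments per vehicle library and 487 to 641 per JHU083 library. Camk2n1 lies at chr4:138454314-138460123 on the plus strand (GRCm38, GENCODE M21) with 2 exons. Among all loci tested it ranked 12 by size of increase.

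The CaMKII subunits, on which the Camk2n1 protein acts, were not called. Camk2d (chr3:126596302-126846326, plus strand), the delta subunit of CaMKII, ranged from 97.3 to 115 CPM in vehicle and from 95.3 to 124 CPM in JHU083 libraries, and the groups overlapped. Its log2 fold change was 0.10 ± 0.09 (95% interval -0.07 to 0.26). Camk2g (chr14:20734875-20794088, minus strand), the gamma subunit, ranged from 32.8 to 37.9 CPM in vehicle and from 34.3 to 44.3 CPM in JHU083 libraries, with a log2 fold change of 0.13 ± 0.09 (-0.04 to 0.30). Both intervals lie far under the value for Camk2n1.

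Camk1 (chr6:113334124-113343984, minus strand), which encodes CaM kinase I, gave 198, 167, 182, 203 and 207 CPM in vehicle libraries 1 to 5. In JHU083 libraries 1 to 5 it gave 212, 227, 295, 221 and 202 CPM. JHU083 library 3 stood well above the rest, and the lowest JHU083 library lay within the vehicle range. The log2 fold change was 0.27 ± 0.10 and was called higher, but the call was lost in 8 of 10 fits that each left out 1 library, with values of 0.17 (without JHU083 library 3) to 0.30 in those fits. Within the sets of libraries it was 0.40 ± 0.16 and 0.19 ± 0.12, with no call in either. Camk1 was also not called with library size only (0.19 ± 0.09), with the replicate number as a block (0.26 ± 0.11) or with limma-voom (0.19 ± 0.08). The 3' neighbour on the opposite strand, the DNA repair gene Ogg1, shares 232 exonic bases with Camk1 (3.9% of its exons), and its own log2 fold change was -0.15 ± 0.16 (adjusted p = 0.49).

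Of the other calmodulin and CaM kinase genes listed by function, 11 of 20 were tested, 4 rose and 2 fell (36.4% and 18.2%, beside 18.4% and 18.3% of all loci), with a median log2 fold change of 0.19. Earlier results of these data were known when this list and those below were chosen, so their shares are a description. Camk2a, the alpha subunit of CaMKII best known from neurons, rose from 1.66 ± 0.65 to 3.65 ± 0.38 CPM (log2 fold change 1.138 ± 0.24, edgeR adjusted p = 0.0022), but was not called in the libraries with the repeat loci above 0 (0.80, edgeR adjusted p = 0.152). Camk2n2, the other CaMKII inhibitor gene, fell from 1.76 ± 0.30 to 0.80 ± 0.36 CPM (-1.13 ± 0.31, edgeR adjusted p = 0.0119), and every JHU083 library lay below every vehicle library. The fitted changes of the inhibitor genes Camk2n1 and Camk2n2 thus had opposite signs, but Camk2n2 was not called within either set of libraries (-1.54, edgeR adjusted p = 0.103, and -0.91, edgeR adjusted p = 0.169). Camkk2, a kinase that activates CaM kinases I and IV, rose from 23.4 ± 2.39 to 29.7 ± 2.58 CPM (0.35 ± 0.09, edgeR adjusted p = 0.0103).

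Among the calmodulin genes, Calm2 rose from 248 ± 6.01 to 307 ± 17.9 CPM (0.31 ± 0.06, edgeR adjusted p = 0.00168), and Calm3 fell from 246 ± 29.1 to 184 ± 21.7 CPM (-0.42 ± 0.10, edgeR adjusted p = 0.00443). Calm2 and Calm3 were named after their values were seen. The last gene of the group to rise, Calml4, was near the threshold (0.89 ± 0.33, edgeR adjusted p = 0.0469), and its call was lost when any library other than vehicle 1 or JHU083 5 was left out, with values of 0.74 to 0.95.

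In the calcineurin branch Rcan1 showed the largest difference. Rcan1 (chr16:92391953-92470867, minus strand) was at 95.8, 105, 84.9, 89.5 and 93.5 CPM in vehicle libraries 1 to 5. In JHU083 libraries 1 to 5 it was at 190, 131, 236, 195 and 135 CPM. All JHU083 libraries lay above all vehicle libraries, and libraries 2 and 5 were again the lowest of the JHU083 group, as for Camk2n1. The means were 93.7 ± 7.40 and 177 ± 44.3 CPM, and the coefficient of variation was 7.9% in vehicle against 25% in JHU083 libraries. The log2 fold change was 0.92 ± 0.14, a 1.89-fold difference, which ranked 335 among increases over all loci tested.

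The calcineurin subunits differed less. Ppp3ca (chr3:136670124-136937727, plus strand), the alpha catalytic subunit, was at 86.5, 114, 118, 108 and 96.4 CPM in vehicle and 139, 133, 105, 147 and 138 CPM in JHU083 libraries 1 to 5. JHU083 library 3 fell inside the vehicle range while the other 4 lay above it. Its log2 fold change was 0.34 ± 0.11 and was called higher. The call was lost without vehicle library 1 (0.28), vehicle library 5 (0.31) or JHU083 library 4 (0.30), and in the libraries with the repeat loci at 0 (0.20 ± 0.15). It was also lost with library size only (0.26 ± 0.11) and with the replicate number as a block (0.34 ± 0.12).

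Ppp3r1 (chr11:17159263-17200375, plus strand), the regulatory subunit, was at 128, 122, 129, 126 and 125 CPM in vehicle libraries and 136, 153, 147, 155 and 147 CPM in JHU083 libraries 1 to 5. The groups did not overlap, and the spread was small, with coefficients of variation of 2.3% and 5.0%. Its log2 fold change was 0.23 ± 0.06 and was called higher, with no call within either set of libraries (0.19 ± 0.11 and 0.23 ± 0.11) or when no filter on low counts was used. The call was also lost with library size only (0.145 ± 0.06) and with the replicate number as a block (0.22 ± 0.08). The deposited locus also lists Wdr92, which shares 462 exonic bases on the same strand in GENCODE M21 (14.3% of the Ppp3r1 exons), so the value covers both genes.

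Of the 8 other calcineurin subunit and inhibitor genes tested, 11 being listed, 1 rose and 2 fell (12.5% and 25%, beside 18.4% and 18.3% of all loci), with a median log2 fold change of -0.01. The other catalytic subunits were not called: Ppp3cb had 57.9 ± 3.58 and 61.7 ± 2.49 CPM (0.09 ± 0.07, edgeR adjusted p = 0.33), and Ppp3cc had 8.64 ± 1.19 and 10.4 ± 2.66 CPM (0.26 ± 0.17, edgeR adjusted p = 0.258). Akap5, a scaffold that anchors calcineurin, rose from 1.90 ± 0.47 to 3.35 ± 1.10 CPM (0.81 ± 0.27, edgeR adjusted p = 0.0293), a call lost without vehicle library 4 or JHU083 library 1, 4 or 5 (0.65 to 0.77). Fkbp1a, the immunophilin through which FK506 inhibits calcineurin, fell from 158 ± 13.9 to 111 ± 11.1 CPM (-0.51 ± 0.09, edgeR adjusted p = 4.19e-04). Ppia, the cyclophilin bound by cyclosporin, fell from 1226 ± 85.6 to 1016 ± 135 CPM (-0.27 ± 0.10, edgeR adjusted p = 0.0473) and was named after its value was seen. Rcan3, a relative of Rcan1 that was likewise named after its value was seen, was at 40.2 ± 3.06 and 40.0 ± 4.06 CPM (-0.005 ± 0.09, edgeR adjusted p = 0.972).

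The CHP genes differed sharply from each other. Chp2 (chr7:122219496-122222824, plus strand, 8 exons) was at 1.29, 2.13, 3.17, 2.09 and 1.957 CPM in vehicle libraries 1 to 5. In JHU083 libraries 1 to 5 it was at 9.48, 21.6, 14.3, 19.2 and 15.5 CPM. The lowest JHU083 library lay well above the highest vehicle library, and library 1 was the lowest in each group, a number that does not link the groups. The means were 2.13 ± 0.67 and 16.01 ± 4.67 CPM, the log2 fold change was 2.91 ± 0.25, a 7.53-fold difference, and its rank among increases was 7. The vehicle values rest on only 19 to 42 fragments per library, against 139 to 315 in the JHU083 group.

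Chp1 (chr2:119547697-119587027, plus strand), the widely expressed relative, ranged from 162 to 177 CPM in vehicle and from 170 to 189 CPM in JHU083 libraries. The groups overlapped, and the log2 fold change was 0.04 ± 0.06 (95% interval -0.08 to 0.16), turning to -0.04 with library size only and to -0.005 in the libraries with the repeat loci above 0. Per length Chp1 was the more abundant of the pair in every library, with at least 80.7 FPKM against at most 16.1 FPKM for Chp2.

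Sodium-proton exchangers of the plasma membrane and of internal membranes were listed by function with the remaining CHP gene, Tesc, and 7 of these 10 genes were tested. Slc9a4, a plasma membrane exchanger best known from the stomach, rose from 2.80 ± 0.61 to 8.13 ± 1.21 CPM (1.53 ± 0.18, edgeR adjusted p = 2.27e-05). Its vehicle libraries ranged from 1.98 to 3.53 CPM and its JHU083 libraries from 7.13 to 10.1 CPM, with no overlap. Slc9a9, an endosomal exchanger, rose from 46.3 ± 5.10 to 80.8 ± 5.67 CPM (0.81 ± 0.09, edgeR adjusted p = 1.58e-05), and Slc9a7, of the trans-Golgi network, rose from 8.23 ± 1.60 to 13.0 ± 2.12 CPM (0.65 ± 0.15, edgeR adjusted p = 0.00429). Slc9a5 fell from 4.14 ± 1.34 to 2.18 ± 0.44 CPM (-0.92 ± 0.23, edgeR adjusted p = 0.00739). Of the 7, 3 rose and 1 fell (42.9% and 14.3%, beside 18.4% and 18.3% of all loci), with a median log2 fold change of 0.07.

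**Figure D2:**
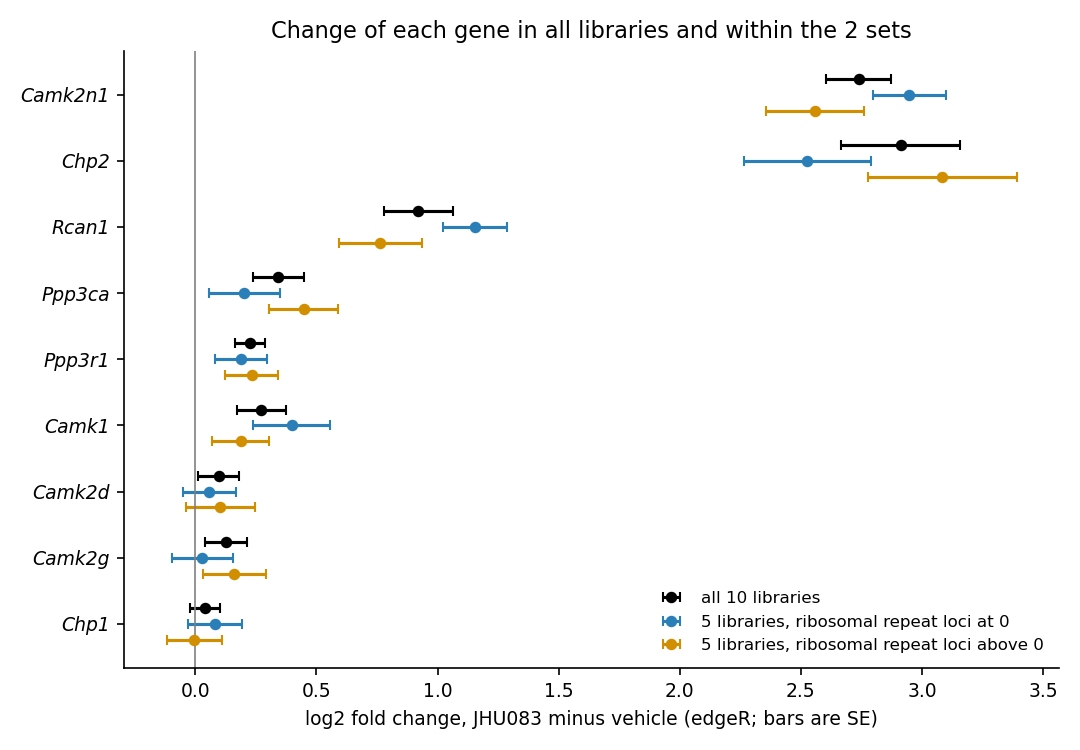
Log2 fold change of JHU083 against vehicle for each of the 9 genes, fitted with edgeR in all 10 libraries (black) and within the 5 libraries with the ribosomal repeat loci at 0 (blue) and the 5 with them above 0 (yellow); bars are SE. Camk2n1, Chp2 and Rcan1 lie well to the right of 0 in all 3 fits, and the other 6 genes lie between -0.01 and 0.45.

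The sets of libraries are subsets of the libraries that chose the genes, so their values describe the size of each difference only. Camk2n1 had a log2 fold change of 2.95 ± 0.15 where the repeat loci were at 0 and 2.56 ± 0.20 where they were above 0. Chp2 had 2.53 ± 0.26 and 3.08 ± 0.31, so Camk2n1 had the larger value where the loci were at 0 and Chp2 where they were above 0. Rcan1 had 1.15 ± 0.13 and 0.76 ± 0.17. Ppp3ca had 0.20 ± 0.15 and 0.45 ± 0.14. The difference between the sets was not tested. Leaving out each library in turn gave 2.68 to 2.83 for Camk2n1, 2.77 to 3.10 for Chp2 and 0.80 to 1.01 for Rcan1.

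Per length, the mean levels of the 9 genes spanned 1.28 to 137 FPKM in vehicle and 8.61 to 166 FPKM in JHU083 libraries. In the deposited FPKM of vehicle libraries Camk1 was highest at 137 ± 11.3, followed by Chp1 at 86.4 ± 4.78, Ppp3r1 at 46.0 ± 1.41, Rcan1 at 42.6 ± 3.54 and Camk2d at 38.4 ± 5.42. Below them were Ppp3ca at 27.8 ± 8.26, Camk2g at 9.42 ± 0.50, Chp2 at 1.58 ± 0.50 and Camk2n1 at 1.28 ± 0.20 FPKM. Neighbours whose ranges overlapped were Ppp3r1 and Rcan1, Rcan1 and Camk2d, Camk2d and Ppp3ca, and Chp2 and Camk2n1. In JHU083 libraries Camk1 (166 ± 25.4 FPKM) and Chp1 (96.7 ± 5.72) again led, Rcan1 came next at 81.6 ± 20.3, then Ppp3r1 at 53.5 ± 2.58, Ppp3ca at 40.1 ± 10.3 and Camk2d at 38.9 ± 5.04. The lowest levels were those of Chp2 at 11.9 ± 3.49, Camk2g at 10.3 ± 1.13 and Camk2n1 at 8.61 ± 1.25 FPKM, each overlapping the next. Chp1 and Rcan1, Ppp3r1 and Ppp3ca, and Ppp3ca and Camk2d also overlapped. Camk2n1 and Chp2, whose vehicle values lay below all those of Camk2g, had ranges that overlapped that of Camk2g in JHU083 libraries.

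**Figure D3:**
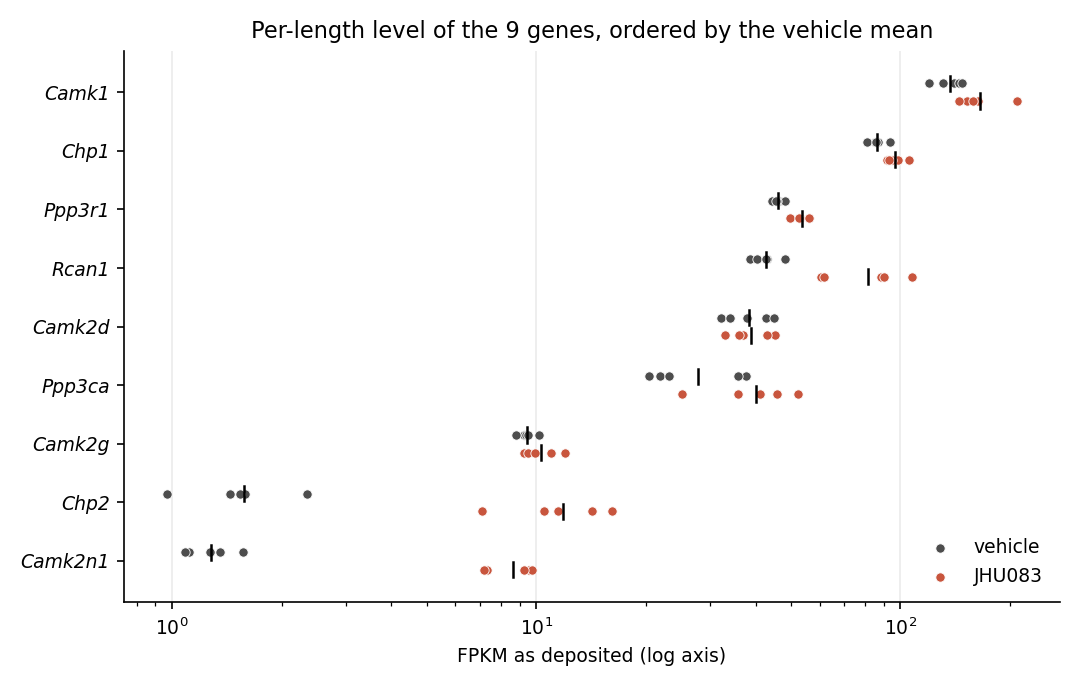
Deposited FPKM of each of the 9 genes in every library on a log axis, ordered by the vehicle mean, with vehicle in grey, JHU083 in red and group means as black ticks. Chp2 and Camk2n1 lie near 1 to 2 FPKM in vehicle and near 7 to 16 FPKM in JHU083 libraries, while Camk1 and Chp1 lead in both groups.

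The FPKM order depends on the length used for each gene. The length implied by the deposited FPKM and the recovered fragments varied between libraries 1.88-fold for Ppp3ca, 1.31-fold for Chp1 and 1.29-fold for Camk2d, and by less for the other 6 genes. For Ppp3ca the ratio of group means was accordingly 1.44 in FPKM and 1.27 in the fit on fragments. With CPM per kilobase of GENCODE exons only 1 of the 9 genes kept its rank in vehicle libraries, and Chp1 then led at 49.3 CPM per kilobase. In JHU083 libraries Rcan1 then led at 57.5 CPM per kilobase, and Chp2 (9.99) and Camk2n1 (8.90) lay above Camk2g (6.005 CPM per kilobase).

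Beyond the 9 genes, 135 genes of the calcium, calmodulin and calcineurin network were listed by function, of which 134 were found, 109 were tested and 25 fell below the filter. Because the lists were chosen with earlier results of these data known, their shares beside those of all loci are a description and support nothing. Of the 109, 33 rose and 13 fell, that is 42.2% called beside 36.7% of all loci, 30.3% higher beside 18.4% and 11.9% lower beside 18.3%, and the median log2 fold change was 0.11. With library size only, 23 rose and 19 fell. Every JHU083 library lay above every vehicle library in 17 of them (15.6%, beside 11.2% of all loci) and below in 9 (8.3%, beside 11.1%). Within the sets of libraries fewer passed, 10 and 4 where the repeat loci were at 0 and 18 and 7 where they were above 0. Of the genes named from these lists, Slc9a4, Slc9a9, Mef2c, Cacna1d, Itpr3, Egr2, Nr4a1, Ctsk and Ocstamp were called in both sets, and Calml4, Camk2n2, Camkk2, Akap5, Slc9a5, Slc9a7, Ryr1 and Nr4a2 in neither. Fkbp1a, Mef2a, Trpm7, P2rx7, Cacna1a, Nr4a3 and Plcb4 lost their call where the repeat loci were at 0. Camk2a, Crem and Hdac7 lost theirs where these loci were above 0.

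**Figure D4:**
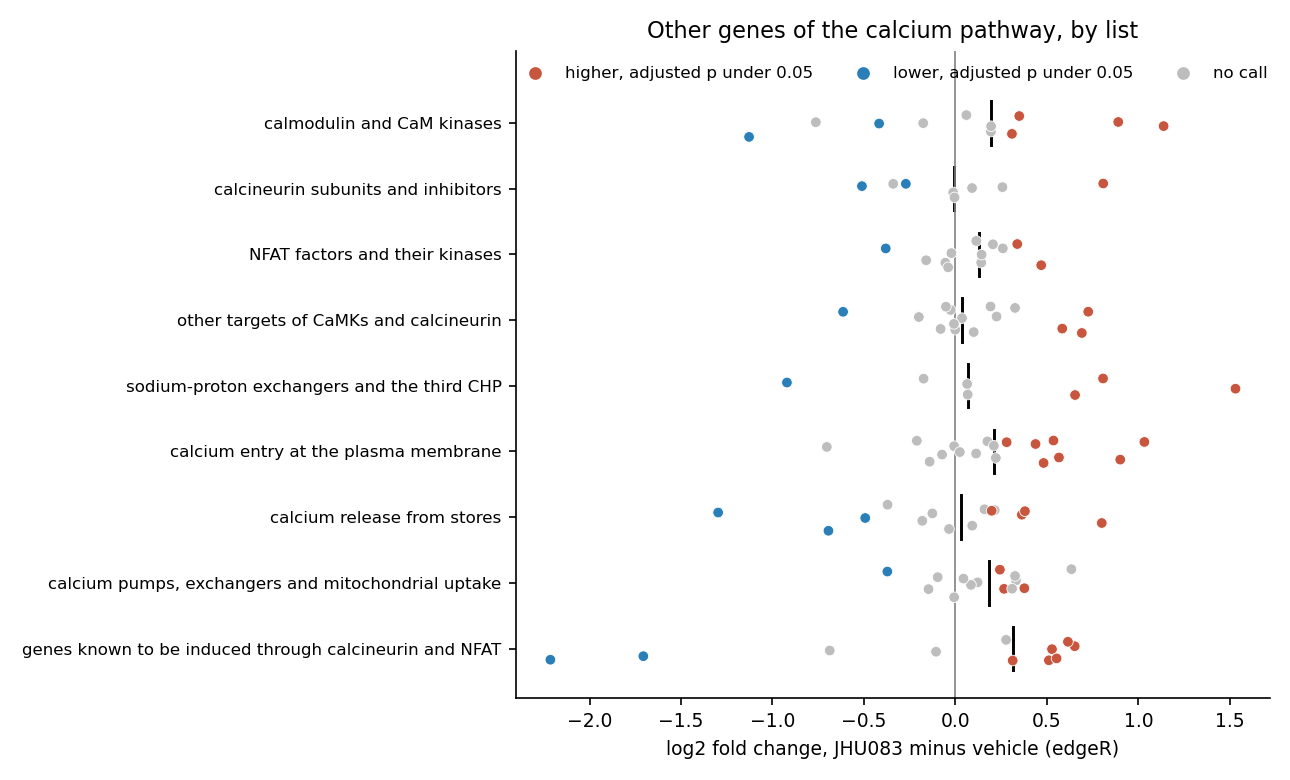
Log2 fold change of the 109 tested network genes outside the 9 described, 1 point per gene, in rows by functional list; red and blue points passed an adjusted p under 0.05 as higher or lower, grey points did not, and black ticks are list medians. The medians lie between -0.01 and 0.31, and the lowest points, Ocstamp and Ctsk, belong to the list of genes known to be induced through calcineurin and NFAT.

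The NFAT factors themselves were not called. Nfatc1, the NFAT of osteoclast differentiation, was at 55.1 ± 0.65 and 53.1 ± 7.36 CPM (-0.06 ± 0.09, edgeR adjusted p = 0.666), and Nfatc2 was at 20.2 ± 2.11 and 19.9 ± 2.02 CPM (-0.02 ± 0.10, edgeR adjusted p = 0.884). Of the 12 NFAT factors, partners and kinases tested, 2 rose and 1 fell (16.7% and 8.3%, beside 18.4% and 18.3% of all loci). The NFAT kinases Dyrk1a (0.34 ± 0.12, edgeR adjusted p = 0.0323) and Dyrk2 (0.47 ± 0.14, edgeR adjusted p = 0.0196) rose, and Nfatc2ip (-0.38 ± 0.14, edgeR adjusted p = 0.0434) fell, all named after their values were seen.

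Among 11 tested genes known to be induced through calcineurin and NFAT, 6 rose and 2 fell (54.5% and 18.2%, beside 18.4% and 18.3% of all loci), with a median of 0.31. This list too was chosen with earlier results of these data known, so its shares are a description and support nothing. The transcription factor gene Egr2 rose from 112 ± 4.82 to 176 ± 25.2 CPM (0.65 ± 0.09, edgeR adjusted p = 1.12e-04), and the orphan nuclear receptor Nr4a1 rose from 606 ± 27.5 to 873 ± 116 CPM (0.53 ± 0.09, edgeR adjusted p = 5.11e-04), both with no overlap between the groups. Nr4a3 (0.62 ± 0.17, edgeR adjusted p = 0.0128), Nr4a2 (0.55 ± 0.16, edgeR adjusted p = 0.013) and Egr3 (0.51 ± 0.18, edgeR adjusted p = 0.0385) rose with overlapping groups. Of the remaining genes, Ocstamp, a regulator of osteoclast fusion, fell from 35.0 ± 4.75 to 7.56 ± 1.81 CPM (-2.21 ± 0.15, edgeR adjusted p = 7.53e-07). Ctsk, the collagen-degrading cathepsin K, fell from 27.9 ± 11.0 to 8.56 ± 2.81 CPM (-1.71 ± 0.27, edgeR adjusted p = 2.9e-04), while the acid phosphatase gene Acp5 rose (0.31 ± 0.11, edgeR adjusted p = 0.0434). Dcstamp (0.28 ± 0.25, edgeR adjusted p = 0.41), Itgb3 (-0.69 ± 0.41, edgeR adjusted p = 0.197) and Ptgs2 (-0.11 ± 0.19, edgeR adjusted p = 0.693) were not called. Egr3, Acp5, Dcstamp, Itgb3 and Ptgs2 were named after their values were seen.

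Of 15 other targets of CaM kinases and calcineurin, all tested, 3 rose and 1 fell (20% and 6.7%, beside 18.4% and 18.3% of all loci), with a median of 0.04. Mef2c, a transcription factor held in check by class IIa deacetylases, rose from 66.9 ± 3.56 to 108 ± 17.7 CPM (0.69 ± 0.10, edgeR adjusted p = 1.74e-04). Mef2a rose from 118 ± 16.4 to 195 ± 37.3 CPM (0.73 ± 0.13, edgeR adjusted p = 8.56e-04), with JHU083 library 3 inside the vehicle range. Crem, a cAMP-responsive factor, rose from 163 ± 14.8 to 245 ± 53.8 CPM (0.58 ± 0.13, edgeR adjusted p = 0.00347). Hdac7, one of the class IIa deacetylases that CaM kinases phosphorylate, fell from 15.4 ± 3.26 to 10.1 ± 0.53 CPM (-0.61 ± 0.14, edgeR adjusted p = 0.00402). Crem (0.48, edgeR adjusted p = 0.0653) and Hdac7 (-0.47, edgeR adjusted p = 0.134) were not called in the libraries with the repeat loci above 0. Mef2a was not called in those with them at 0 (0.50, edgeR adjusted p = 0.0828).

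Of 17 tested genes of calcium entry at the plasma membrane 7 rose, with a median of 0.21, and the other 10 were not called. The 41.2% that rose stand beside 18.4% called higher, and 36.7% called in either direction, over all loci. Cacna1d, a pore subunit of L-type calcium channels, rose from 19.7 ± 1.06 to 40.3 ± 8.22 CPM (1.03 ± 0.13, edgeR adjusted p = 4e-05), and Cacna1a, of P/Q-type channels, rose from 7.06 ± 0.79 to 13.2 ± 2.12 CPM (0.90 ± 0.14, edgeR adjusted p = 2.04e-04). The ATP-gated channel gene P2rx7 rose from 120 ± 19.1 to 175 ± 23.5 CPM (0.54 ± 0.12, edgeR adjusted p = 0.00278). Cacna1a (0.85, edgeR adjusted p = 0.0563) and P2rx7 (0.39, edgeR adjusted p = 0.109) were not called in the libraries with the repeat loci at 0. Trpm7 rose from 60.0 ± 16.4 to 88.8 ± 20.4 CPM (0.57 ± 0.19, edgeR adjusted p = 0.0311), a call kept only without vehicle library 3 or JHU083 library 3 when single libraries were left out (0.48 to 0.59 where it was lost). It was also lost with library size only (0.49, edgeR adjusted p = 0.071), with the replicate block (0.58, edgeR adjusted p = 0.0778) and with the repeat loci at 0 (0.34, edgeR adjusted p = 0.391). Saraf (0.482 ± 0.065, edgeR adjusted p = 8.6e-05), P2rx4 (0.44 ± 0.07, edgeR adjusted p = 3.84e-04) and Orai2 (0.28 ± 0.08, edgeR adjusted p = 0.0135) also rose, named after their values were seen. The list holds regulators as well as channels, so a higher level of a gene does not measure more calcium entry. Stim1, the calcium sensor of the endoplasmic reticulum, was at 53.2 ± 3.52 and 60.0 ± 4.31 CPM (0.18 ± 0.08, edgeR adjusted p = 0.0894).

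Of 14 tested genes of calcium release from stores, 4 rose and 3 fell (28.6% and 21.4%, beside 18.4% and 18.3% of all loci), with a median of 0.03. The inositol trisphosphate receptor Itpr3 fell from 52.7 ± 9.03 to 32.6 ± 2.53 CPM (-0.69 ± 0.11, edgeR adjusted p = 3.5e-04), and Itpr1 fell from 18.5 ± 4.28 to 13.1 ± 2.77 CPM (-0.49 ± 0.17, edgeR adjusted p = 0.0362). Plcb4, a phospholipase C, had few counts (1.81 ± 1.10 and 0.73 ± 0.22 CPM, -1.30 ± 0.45, edgeR adjusted p = 0.0352), and its call was lost in 8 of 10 fits that left out a library, with values of -1.38 to -0.96. The ryanodine receptor Ryr1 rose from 1.95 ± 0.57 to 3.42 ± 0.65 CPM (0.80 ± 0.23, edgeR adjusted p = 0.0152). The endolysosomal channels Mcoln1 (0.38 ± 0.08, edgeR adjusted p = 0.00191) and Tpcn2 (0.20 ± 0.07, edgeR adjusted p = 0.0284) and the ectoenzyme Cd38 (0.36 ± 0.06, edgeR adjusted p = 5.51e-04) rose, and with Itpr1 these were named after their values were seen. Of 14 tested pumps, exchangers and mitochondrial uptake genes, 3 rose and 1 fell (21.4% and 7.1%, beside 18.4% and 18.3% of all loci). The gene that fell was Smdt1, at a locus that also lists Fam109b, and those that rose included Atp2c1 and Slc8b1, all named after their values were seen, with a median of 0.18 and no log2 fold change past 0.5 in size among those called.

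The loci whose pattern over the 10 libraries was most like that of Camk2n1 were found by the root mean square difference in log2 CPM after subtracting each gene's vehicle mean. They were Sult1a1 (0.236), a sulfotransferase gene, Fbp1 (0.279), which encodes fructose bisphosphatase, and Sardh (0.314), which encodes sarcosine dehydrogenase. Sult1a1 went from 1.44 ± 0.39 to 10.7 ± 2.24 CPM, Fbp1 from 1.25 ± 0.19 to 7.52 ± 1.30 CPM and Sardh from 1.82 ± 0.35 to 13.6 ± 2.81 CPM. For Chp2 they were Retnla (0.290), a marker of alternatively activated macrophages, Angptl7 (0.329) and the growth factor gene Igf1 (0.377). Retnla went from 4.19 ± 0.95 to 31.0 ± 11.6 CPM, Angptl7 from 2.40 ± 0.83 to 15.9 ± 3.26 CPM and Igf1 from 24.8 ± 10.1 to 139 ± 49.4 CPM. Library 1 was the lowest of both groups for Chp2 and for each of these 3 genes. All points share the same 10 libraries, and the likeness was chosen on the treatment contrast.

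Of the genes next to Camk2n1, Chp2 and Rcan1, Prkcb and Mul1 were tested and the others fell below the filter. On the lower side of Chp2, Ern2 had no fragment in any library, and on the higher side Prkcb, 65927 bases away and a protein kinase C gene, rose from 79.6 ± 4.96 to 105 ± 11.7 CPM (0.40 ± 0.09, edgeR adjusted p = 0.00261). Next to Camk2n1, the mitochondrial ubiquitin ligase gene Mul1, 12049 bases away, was at 19.9 ± 2.02 and 23.8 ± 3.35 CPM (0.25 ± 0.11, edgeR adjusted p = 0.0852), and Vwa5b1 had at most 1 fragment in a library. Next to Rcan1, Kcne1 had no fragment in any library and Clic6 had at most 6.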

How the data were processed

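Polyadenylated RNA of 10 sorted samples was sequenced after random priming, per the labels' protocols. The submitters' processing notes name bcl2fastq 2.17.1.14, FastQC 0.11.2, TopHat2 2.1.1 and GRCm38, while the counting program, its strand setting and the annotation are not given in the sources used here, so overlapping genes cannot be separated. Per the file headers each table has a column of raw counts; the deposited values are not whole (unit: expected counts), and they appear to be fragment counts scaled by 1 step per library (0.888 to 1.17), since dividing by it gave whole numbers for 99.88% to 99.95% of values (within 0.01 fragment or 0.01%). These recovered fragments were rounded. The other column is headed as normalized, and from its values the authors deposited FPKM there. Loci that list more than 1 symbol numbered 1060 and held 12.7% of the fragments.

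JHU083 was compared with vehicle over 12501 loci by the quasi-likelihood test of edgeR 4.0.16 (R 4.3.3, filterByExpr, TMM, no covariate, Benjamini-Hochberg at 0.05). All single-gene adjusted p-values come from this fit, SE is the absolute log2 fold change divided by the square root of F, and 95% intervals use that SE. The script was tested on simulated data. Positions came from GENCODE M21 and promoters from RefSeq (GRCm38.p6). Named network genes passed the adjusted threshold with a log2 fold change of at least 0.5 in size and a mean of at least 1 CPM, at most 4 per list and direction, plus Ppp3cb, Ppp3cc, Nfatc1, Nfatc2, Stim1, Camkk2 and genes that are not reported here; genes outside this rule are named as such. The 9 genes, the lists and the cell type markers were chosen with earlier results of these data known. Other settings tried were limma-voom of limma 3.58.1 with sample quality weights, DESeq2 1.42.0, other scalings, filters and pseudocounts, the deposited values rounded, the library sets, leaving out each library, and a replicate block. Piezo1 of the lists was not analysed here.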

Additional observations from a re-analysis of the deposited data

Results flagged for a closer look

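In 82 groups of 5 libraries, formed by the 9 genes and the named network genes in each treatment, the highest or lowest library was compared with the rest on the log2 CPM scale, and 3 stood apart by a gap of more than 0.71 of the group's range. Chance gives about 1 in 20 groups. Chp1 was lowest in vehicle library 4, at 7.34 against 7.44 to 7.47 in the other 4, a gap of 0.713 of the range. Camk2a was highest in vehicle library 3, at 1.55 against 0.38 to 0.71, a gap of 0.72. Trpm7 was lowest in JHU083 library 3, the library of lowest quality weight, at 5.75 against 6.49 to 6.72, a gap of 0.763.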

How the results depend on the processing

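Of the 9 genes, 6 were called higher. That count was 3 with library size only, 3 with the replicate block and 3 in the libraries with the repeat loci at 0. Of the network genes, 33 were called higher and 13 lower, against 10 and 4 in the libraries with the repeat loci at 0, 18 and 7 in those with them above 0, 23 and 8 with the block, and 23 and 19 with library size only. Over all loci, 2296 were called higher and 2293 lower, against 532 and 586, and 1334 and 1518, in the same library sets, which hold fewer libraries, 1564 and 3141 with library size only, and 1612 and 1757 with the block. The replicate numbers did not pair the libraries: correlations between same-numbered libraries ran from -0.61 to -0.18, and no library correlated best with its own number. Chp1 turned to -0.041 with library size only and to -0.005 with the repeat loci above 0. Nfatc1 ran from -0.125 to 0.011 and Nfatc2 from -0.069 to 0.032 with single libraries left out, and Nfatc2 was 0.016 with limma-voom. The cause was not tested. The order of levels in vehicle libraries kept 1 of 9 ranks with CPM per kilobase of GENCODE exons. The difference in mean depth, 1872643 fragments, ran from 1473381 (without vehicle library 4, exact p = 0.0556) to 2330396 with single libraries left out. Over all settings, 24 of 189 values of the 9 genes lost their call and 2 reversed, and of 671 values of named network genes 63 lost it and 5 reversed. The lost calls of the 9 genes were those of Camk1 (13 of 21 settings), Ppp3ca (6 of 21) and Ppp3r1 (5 of 21). Camk2d, Camk2g and Chp1 had no call to lose, nor had some of the named network genes. Among the 9 genes Chp2 had the fewest fragments, with 19 to 42 fragments in vehicle libraries.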
